A study of Mus musculus with 6 samples.

Results

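The genes described here are 9 components and readouts of the pathway through which the histone deacetylase HDAC4 carries the loss of nerve input to the muscle nucleus. They were taken by name: the class IIa deacetylases Hdac4, Hdac5, Hdac7 and Hdac9, the transcriptional repressor Dach2, and the denervation-responsive genes Runx1, Gadd45a, Cdkn1a and Ncam1. All 9 were represented on the arrays, by 25 probes, and all 9 were among the 25005 genes and transcripts tested. Both groups consisted of male mice of the AR97Q line on a C57BL/6J background, killed at 9 weeks of age. This line carries a human androgen receptor transgene with an expanded CAG repeat and models the motor neuron disease SBMA (spinal and bulbar muscular atrophy), a disorder of motor neurons and skeletal muscle. The exercise group was trained on a forced running wheel at low to moderate intensity through the presymptomatic weeks and was sampled on the day after the last bout, whereas the sedentary group was not trained. Each group was represented by the quadriceps of 3 mice with 1 array per mouse, and no wild-type quadriceps was among the arrays, so that every value compares one group of transgenic mice with another.

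In innervated muscle, class IIa deacetylases are kept out of the nucleus when kinases phosphorylate them and 14-3-3 proteins hold them in the cytoplasm. When nerve activity is lost, HDAC4 accumulates in the nucleus, lowers the transcription of Dach2, and so releases myogenin, which Dach2 restrains. Myogenin in turn drives the subunits of the fetal acetylcholine receptor and other denervation genes. Runx1, Gadd45a, its downstream cell cycle inhibitor Cdkn1a, and the adhesion molecule Ncam1 are likewise known to rise in denervated muscle.

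Every measurement is the brightness of a probe on a 1-colour Agilent array, given below as its log2 signal relative to the 75th percentile of the same array (relative log2 signal). Differences are exercise minus sedentary on this scale, and a gene is said to have changed where limma gave an adjusted p below 0.05 over all genes and transcripts tested. The 75th percentile was 251 to 257 on the exercise arrays and 310 to 384 on the sedentary arrays, and 54.6 to 59.9% of the probes on an array were well above background. The median difference over all genes and transcripts was 0.03 after this scaling and -0.45 without any scaling. All arrays were on 1 slide. The position codes in the scanner headers were read as 2 strips of arrays, a reading that no source states. The 3 exercise arrays and that of sedentary mouse 1 shared a strip, and the arrays of sedentary mice 2 and 3 lay in the other, so that strip and group are partly confounded.

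Promoter sequences are shown for Hdac4 and Hdac5, class IIa deacetylases whose differences had opposite signs, and for Hdac9, Dach2 and Runx1, 3 of the genes that changed. They are the 250 bases before an annotated transcription start, from RefSeq on GRCm38.p6, written 5′ to 3′ on the strand of the gene. Capitals mark the E-box (CANNTG, the core recognised by myogenin and related factors, sought on both strands) and the MEF2 consensus, the site of the factors that class IIa deacetylases bind. For Hdac9, Dach2 and Runx1, which have more than one annotated start, the most upstream window is given.
Hdac4, chr1:92180342-92180591, minus strand: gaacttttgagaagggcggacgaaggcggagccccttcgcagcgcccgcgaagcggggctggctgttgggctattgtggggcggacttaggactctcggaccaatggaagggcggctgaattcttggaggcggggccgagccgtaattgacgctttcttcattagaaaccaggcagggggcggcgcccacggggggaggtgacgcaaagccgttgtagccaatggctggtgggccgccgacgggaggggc
Hdac5, chr11:102230173-102230422, minus strand: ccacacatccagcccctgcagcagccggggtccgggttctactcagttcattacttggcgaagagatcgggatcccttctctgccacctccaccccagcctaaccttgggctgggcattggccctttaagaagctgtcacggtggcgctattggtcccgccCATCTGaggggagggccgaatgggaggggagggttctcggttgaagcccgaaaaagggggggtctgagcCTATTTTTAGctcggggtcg
Hdac9, chr12:34917096-34917345, minus strand: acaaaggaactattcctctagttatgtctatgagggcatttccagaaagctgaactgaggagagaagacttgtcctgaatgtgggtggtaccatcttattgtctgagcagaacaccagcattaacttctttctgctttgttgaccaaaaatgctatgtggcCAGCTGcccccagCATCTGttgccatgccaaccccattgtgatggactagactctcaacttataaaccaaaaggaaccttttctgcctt
Dach2, chrX:113297260-113297509, plus strand: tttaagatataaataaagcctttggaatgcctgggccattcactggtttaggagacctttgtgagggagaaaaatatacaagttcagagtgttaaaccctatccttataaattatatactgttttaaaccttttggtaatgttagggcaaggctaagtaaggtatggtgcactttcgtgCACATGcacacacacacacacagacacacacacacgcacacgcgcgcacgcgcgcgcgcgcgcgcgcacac
Runx1, chr16:92826075-92826324, minus strand: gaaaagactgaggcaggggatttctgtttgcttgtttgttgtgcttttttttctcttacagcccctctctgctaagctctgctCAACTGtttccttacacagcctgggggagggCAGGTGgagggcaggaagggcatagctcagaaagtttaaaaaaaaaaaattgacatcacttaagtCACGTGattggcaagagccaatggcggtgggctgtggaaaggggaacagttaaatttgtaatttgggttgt
The table held 15 such windows for 8 of the genes and none for Ncam1. At least 1 E-box stood in 8 of the 15 windows (53.3%), beside 66.2% of all 32851 windows of this length. The Hdac4 window held neither motif, whereas that of Hdac5 was the only 1 of the 15 with a MEF2 match, at bases -20 to -11 from the start, a motif present in 2.92% of all windows. The E-box of the Hdac5 window lay at bases -89 to -84 and did not overlap it. In the Runx1 window the last of the 3 E-boxes, at bases -71 to -66, had the form CACGTG. Such matches describe the letters of these windows and say nothing of binding.

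Hdac4, Runx1 and Ncam1 were lower and Hdac9 and Dach2 were higher in the exercised muscle. Thus 3 of the 9 genes had fallen, beside 6.12% of all genes and transcripts tested, and 2 had risen, beside 11.5%. One of these, Dach2, was tested only because its exercise arrays were bright enough, and with a filter on all arrays 1 of 8 genes had risen, beside 15% of those tested. The other 4 did not pass the test. Of these, Gadd45a was 2.02-fold lower in the exercise group with an adjusted p of 0.0506, Cdkn1a and Hdac7 had overlapping groups, and Hdac5 differed by 0.27. In 7 of the 9 genes the 3 exercise arrays and the 3 sedentary arrays did not overlap, which was the case for 43.2% of all genes and transcripts. The median of the 9 differences was -0.63, but the genes moved in both directions. Without sedentary mouse 3 this median was -0.29. With 3 arrays against 3, an exact permutation test cannot give a p below 0.1.

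**Figure D1:**
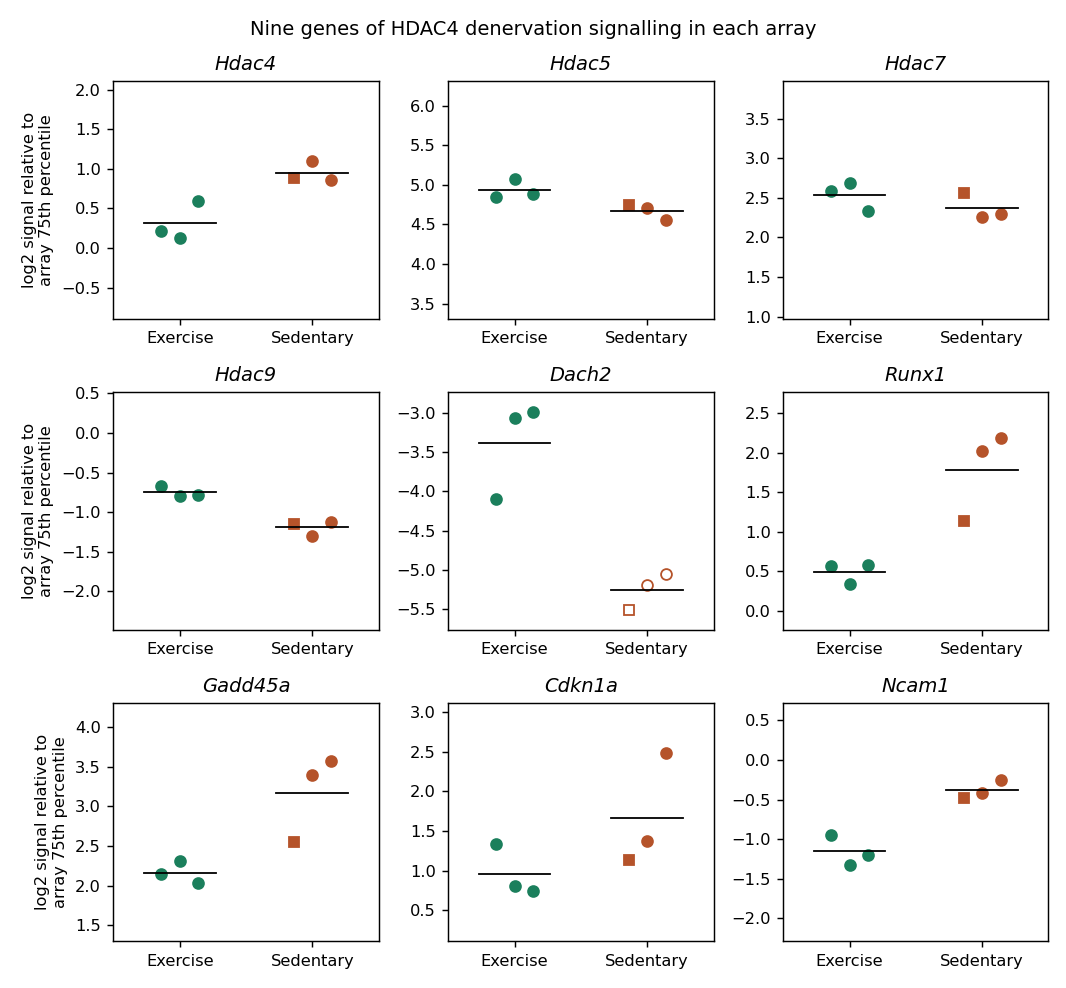
Relative log2 signal (log2 of the probe signal over the array's 75th percentile, vertical axis) of the 9 genes in each exercise (green) and sedentary (brown) array; bars are group means, the square is sedentary mouse 1 and open symbols are arrays of a group in which the probe was never well above background. Vertical axes differ between panels. The groups are apart in every panel other than Hdac7 and Cdkn1a, and sedentary mouse 1 is the lowest sedentary array for Runx1 (1.14) and Gadd45a (2.55). It is also the lowest sedentary array for Dach2 (-5.51), Cdkn1a (1.13) and Ncam1 (-0.48).

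Hdac4, the deacetylase that gives the pathway its name, was lower after exercise. Its brightest probe, A_51_P417839 (RefSeq transcript NM_207225), had relative log2 signals of 0.22, 0.12 and 0.59 in the exercised mice and of 0.89, 1.09 and 0.86 in the sedentary mice. All sedentary arrays lay above all exercise arrays, and exercise mouse 3 was the closest to them. The difference of -0.63 (SE 0.15, adjusted p 0.0376) corresponds to a 1.55-fold lower signal. It lay just past the threshold, and centring on the array median gave -0.55 with an adjusted p of 0.0504. Before scaling, the probe read 299, 279 and 377 in the exercised and 573, 789 and 694 in the sedentary mice. The other probes of the same transcript gave -0.55 (adjusted p 0.0504 over all probes) and -0.69 (adjusted p 0.0335), also without overlap. Against sedentary mouse 1 alone, whose array was in the strip of the exercise arrays, the difference of the brightest probe was -0.58.

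Hdac5 and Hdac7, class IIa deacetylases that share with HDAC4 the binding of MEF2 factors, did not change by the test. Hdac5 was measured by 1 probe, with relative log2 signals of 4.84, 5.07 and 4.88 in exercised and of 4.74, 4.70 and 4.55 in sedentary mice. The exercise arrays were all higher, but by a small amount (difference 0.27, SE 0.10, 95% confidence interval 0.02 to 0.52, adjusted p 0.119). Hdac7, a deacetylase best known from endothelial cells and lymphocytes, gave 2.59, 2.69 and 2.33 in the exercised against 2.56, 2.26 and 2.30 in the sedentary mice. Its groups overlapped, with a difference of 0.17 (95% confidence interval -0.16 to 0.50, adjusted p 0.405). The summed signal of 8 endothelial marker genes overlapped as well, at 84.1 to 116 times the 75th percentile in exercised and 79.5 to 93.3 times in sedentary muscle, and none of the 8 passed the test in limma, adjusted or unadjusted. Without scaling Hdac5 differed by -0.21 and Hdac7 by -0.30, where the median of all genes was -0.45. Relative to the median they were at 0.24 and 0.14, values that a shift common to all genes cannot alter. These relative differences were smaller under quantile normalization (0.08 and 0.09) and under normexp background correction (0.08 and 0.009).

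Hdac9, whose short products lack the catalytic domain and act as MEF2 repressors in muscle, was higher after exercise. Its brightest probe, A_55_P1970755 (NM_024124), had relative log2 signals of -0.67, -0.79 and -0.78 in the exercised and of -1.15, -1.30 and -1.13 in the sedentary mice. The spread within each group was small, and the gap between the groups exceeded it. The difference was 0.44 (SE 0.09, adjusted p 0.0291), or 1.36-fold. Another probe of the same transcript, A_51_P204031, rose by 0.84 (adjusted p 0.0239 over all probes). The only well-measured probe of the other transcript on the array, NM_001271386, gave 0.52 with overlapping groups (adjusted p 0.136). The difference between the probes of the transcripts was itself indistinguishable between the groups (-0.13, exact permutation p 0.9). Without scaling, where every gene shifts by the same amount and the median of all genes was -0.45, the brightest probe gave -0.03. Relative to that median its difference was 0.42, a value that such a shift cannot alter. The relative difference was 0.51 under quantile normalization and 0.24 under normexp background correction.

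Dach2, the repressor of myogenin that HDAC4 holds down in denervated muscle, was higher after exercise, at a signal close to background. Probe A_55_P1956534 (NM_033605) gave relative log2 signals of -4.10, -3.06 and -2.99 in the exercised mice and of -5.51, -5.20 and -5.05 in the sedentary mice. It was well above background on all 3 exercise arrays and on none of the sedentary arrays, so that the sedentary level is poorly known. With each sedentary value taken at no less than the lowest detected signal of its array, Dach2 was 2.72-fold higher in the exercised muscle. This is not a strict lower bound. In sedentary mouse 1, a Cdkn1a probe not well above background read -4.72, above the lowest detected signal of that array (-4.81). The measured difference of 1.87 (SE 0.32, adjusted p 0.0239) uses sedentary values below detection, and the probe met the filter on dim probes only through the exercise arrays, where it was high. The processed signals behind this were 15, 30.7 and 31.5 in the exercised and 6.80, 10.1 and 11.6 in the sedentary mice. The remaining 4 Dach2 probes were not well above background on any array and were not tested. Under normexp background correction with an added offset the difference of the tested probe shrank to 0.62.

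**Figure D2:**
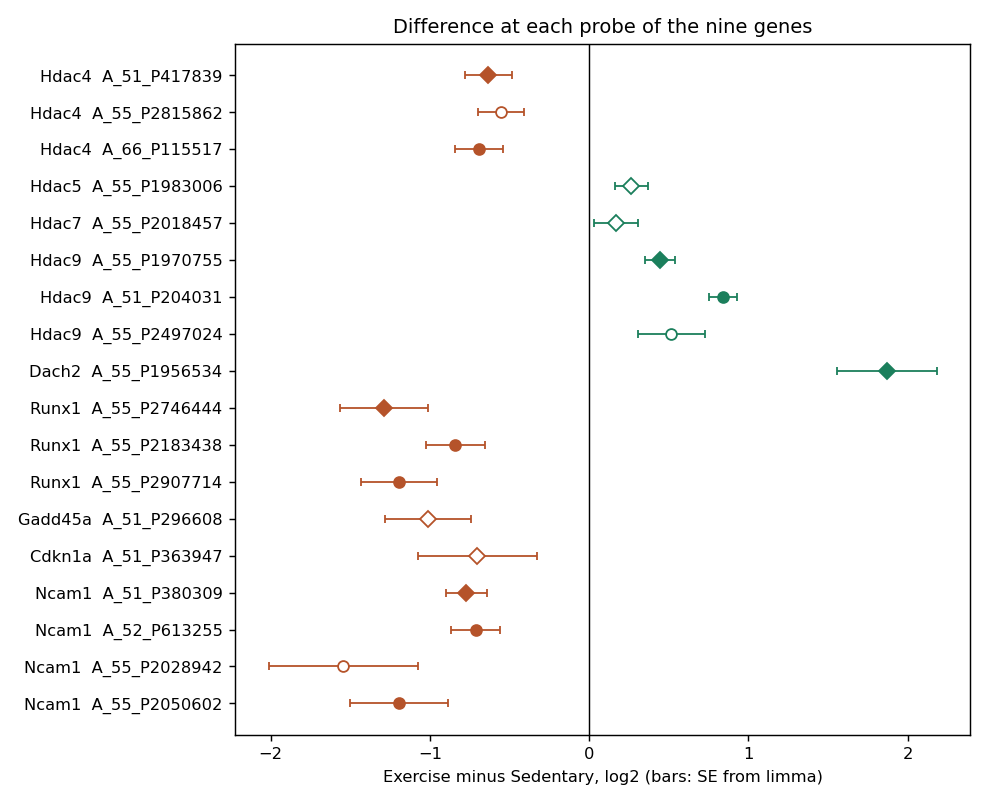
Difference between exercise and sedentary arrays (log2, horizontal axis, with the SE from limma as bars) for each of the 18 member probes bright enough to be tested; diamonds are the probe used for the gene and filled symbols passed an adjusted p of 0.05 over all probes. All probes of Hdac4, Runx1 and Ncam1 lie below 0 and all those of Hdac9 and Dach2 above it.

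Runx1, a transcription factor scarce in innervated adult muscle, was lower after exercise. Its brightest probe, A_55_P2746444 (NM_001111023), had relative log2 signals of 0.56, 0.34 and 0.58 in exercised and of 1.14, 2.03 and 2.18 in sedentary mice. The exercised mice were close to one another, whereas sedentary mouse 1 lay between them and the other sedentary mice. The signal was 2.44-fold lower after exercise (difference -1.29, SE 0.28, adjusted p 0.0323). A second probe of the transcript gave -0.84 (adjusted p 0.0345) and a probe of NM_009821 gave -1.20 (adjusted p 0.0292), both tested over all probes. Against sedentary mouse 1 alone the difference was -0.64, and without that mouse it was -1.61 (adjusted p 0.00902). Leukocytes also express Runx1; of 8 leukocyte markers 5 were lower and none passed the test, adjusted or unadjusted, and their summed signal overlapped (59.0 to 65.1 times the 75th percentile in exercised, 56.8 to 63.7 in sedentary muscle).

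Gadd45a, a stress protein of atrophying muscle, followed the same pattern over the arrays but missed the threshold. Its probe gave 2.14, 2.31 and 2.03 in the exercised and 2.55, 3.40 and 3.57 in the sedentary mice. All exercise arrays were below all sedentary arrays, of which that of mouse 1 was by far the nearest. The difference was -1.01 (SE 0.27, 95% confidence interval -1.67 to -0.36, adjusted p 0.0506). Without sedentary mouse 1 it was -1.32 (adjusted p 0.00902), and against that mouse alone -0.39. Cdkn1a, which encodes the cell cycle inhibitor p21, read 1.33, 0.80 and 0.74 in exercised and 1.13, 1.37 and 2.48 in sedentary mice. The groups overlapped because exercise mouse 1 exceeded sedentary mouse 1, and sedentary mouse 3 stood far above all others. The Cdkn1a difference of -0.70 (SE 0.38) had a 95% confidence interval of -1.61 to 0.21 and an adjusted p of 0.225, so that neither a fall nor its absence could be shown with these arrays. Without sedentary mouse 3 the difference was -0.29 (adjusted p 0.404).

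Ncam1, an adhesion molecule that spreads over the surface of denervated fibres, was lower after exercise on all of its probes. Probe A_51_P380309 (NM_001113204) gave relative log2 signals of -0.95, -1.32 and -1.19 in exercised and of -0.48, -0.41 and -0.25 in sedentary mice. The groups were well separated, sedentary mouse 1 stood with the others, and the signal was 1.71-fold lower (difference -0.77, SE 0.13, adjusted p 0.0238). The second probe of this transcript gave -0.71 (adjusted p 0.0331 over all probes). Both probes of NM_010875 had larger differences, -1.20 (adjusted p 0.0476) and -1.55 (adjusted p 0.0700), and on these sedentary mouse 1 was nearer to the exercised mice than to the other sedentary mice. On average the probes of NM_010875 differed by -1.37 and those of NM_001113204 by -0.74. The contrast between the transcripts was -0.63, but it overlapped between the groups (exact permutation p 0.3), and unequal change of the transcripts was not established.

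Ncam1 is also made by Schwann cells, neurons and satellite cells, and the markers of these cells did not all stay level. The summed signal of 6 satellite cell markers was 38.9 to 42.2 times the 75th percentile in exercised and 48.3 to 50.2 times in sedentary muscle, and all 6 were lower, among them Pax7, the transcription factor of quiescent satellite cells (-0.60, adjusted p 0.0255), although with the array median no satellite cell marker passed (Pax7 adjusted p 0.0727). Of 9 Schwann cell markers 8 were lower and 1 passed the test, and their sums overlapped (45.6 to 55.9 against 52.4 to 68.6). Of 8 neuronal markers 4 were lower, and their sums also overlapped (18.5 to 19.0 against 16.6 to 19.6). Such sums are weighted to the brightest genes. The mean relative log2 signal of the Schwann cell markers did not overlap (0.88 to 1.23 against 1.26 to 1.42). That of the neuronal markers did not overlap either (-2.35 to -1.95 against -1.80 to -1.63). Among the neuronal markers, the neurofilament gene Nefh was detected above background in no exercised mouse. It was 1.48-fold higher in sedentary muscle with each exercise value taken at no less than the lowest detected signal of its array. Its adjusted p of 0.0234 rests on a probe that met the filter only through the sedentary arrays, and under normexp the difference was -0.08 (adjusted p 0.447). The 8 skeletal muscle markers were all higher after exercise and 5 passed the test, such as the myoglobin gene Mb (1.20, adjusted p 0.0234), although 3 of the 8 turned without scaling, 2 under quantile normalization and 1 in the deposited values. Their sum was 3975 to 4522 in exercised and 2017 to 2825 in sedentary muscle. The tested markers were all well above background on 3 or more arrays, whereas Cdh19, Nefl, Syt1 and Myf5 were too dim to be tested. The 7 fibro-adipogenic markers had overlapping sums (588 to 638 against 539 to 709), and none of them passed the test (1 had an unadjusted p below 0.05). In whole muscle, fewer cells of a type and less RNA per cell cannot be told apart, and the part of these marker shifts in the differences of Ncam1 and the other 8 genes was not tested.

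**Figure D3:**
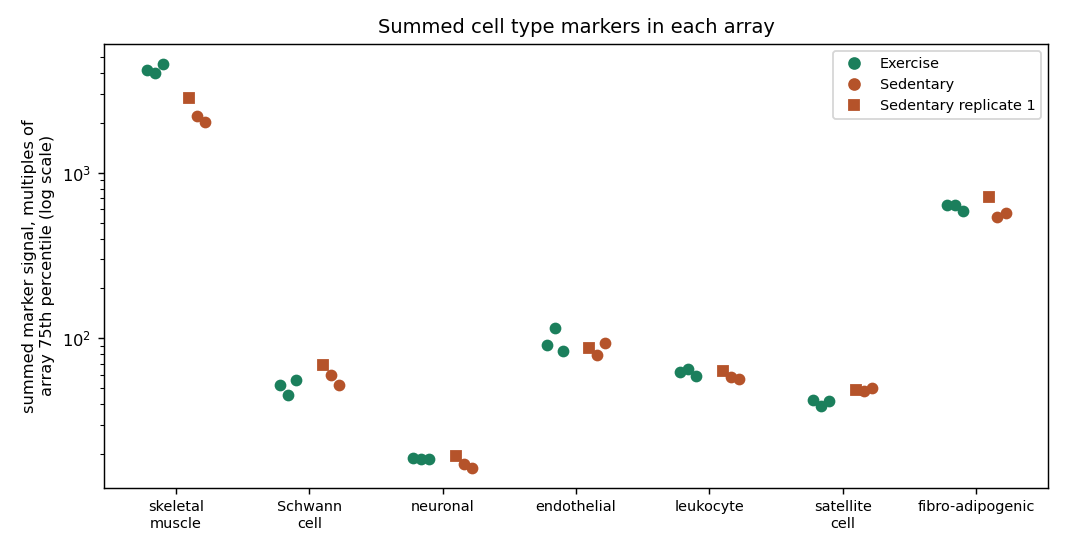
Summed signal of the tested marker genes of each cell type (multiples of the array's 75th percentile, log scale) in each exercise (green) and sedentary (brown) array, with sedentary mouse 1 as a square. Muscle marker sums (3975 to 4522 against 2017 to 2825) and satellite cell sums (38.9 to 42.2 against 48.3 to 50.2) do not overlap between the groups, and the other sums do. The sums are weighted to the brightest genes. The mean relative log2 signals, not drawn here, also do not overlap for Schwann cell markers (0.88 to 1.23 against 1.26 to 1.42) and neuronal markers (-2.35 to -1.95 against -1.80 to -1.63).

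Of the 7 tested histone deacetylases outside class IIa, Hdac6, a largely cytoplasmic tubulin deacetylase, was the only one to change by the test (-0.56, adjusted p 0.0239), and their median difference was 0.10. Of the 14 tested kinases that phosphorylate class IIa deacetylases or belong to these kinase families, 1 rose and none fell. The shares over all genes and transcripts were 11.5% and 6.12%, and the median of the kinases was -0.01. The gene that rose was Camk1, a calmodulin-dependent kinase (0.48, adjusted p 0.0270), a call that was not kept in the deposited values (adjusted p 0.0667). Camk2a, the isoform with the largest difference of the list, gave 1.25 and did not pass (adjusted p 0.0541). No 14-3-3 gene passed among 7, the largest difference being that of Ywhae (0.30, adjusted p 0.0532), and no MEF2 factor or co-repressor passed among 9, the largest being that of Mef2d (0.34, adjusted p 0.0624). At an unadjusted p below 0.05 in limma, 2 of the 7 and 4 of the 9 would have passed, as would 9249 of all 25005 genes and transcripts.

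Among 9 relatives and partners of Dach2, 1 fell and 2 rose, beside 6.12% and 11.5% of all genes and transcripts. Dach1, the paralogue of Dach2, was lower in every exercised mouse (0.84, 0.84 and 0.84 against 1.37, 1.45 and 1.29), with a difference of -0.53 (adjusted p 0.0234; 0.0512 with the array median), whereas Dach2 was higher. Six2, a homeobox factor, rose by 1.03 (adjusted p 0.0411), a call that was not kept under quantile normalization (adjusted p 0.0566). Of the relatives of Runx1, Cbfb, the partner subunit shared by RUNX proteins, rose by 0.64 (adjusted p 0.0272) and Runx3 by 0.80 (adjusted p 0.0268), the latter from a dim probe that was well above background in 1 of the 3 sedentary mice. Neither call was kept under quantile normalization (adjusted p 0.0572 and 0.0646). Runx1t1 differed by -0.03, and Runx2 was too dim to be tested.

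Around Gadd45a and Cdkn1a, 12 genes were tested, of which 3 rose and 1 fell, beside 11.5% and 6.12% of all genes and transcripts. Gadd45g, a paralogue of Gadd45a, was higher after exercise (5.96, 6.03 and 6.55 against 5.59, 5.07 and 4.96), by 0.97 (adjusted p 0.0385), whereas Gadd45a was lower in every exercised mouse. Atf4, the stress-responsive factor known to act on Gadd45a in atrophying muscle, rose by 0.53 (adjusted p 0.0338), and the p53 target Ccng1 by 0.81 (adjusted p 0.0310). All 3 calls were lost under quantile normalization, where the adjusted p ranged from 0.056 to 0.336. Rb1, the retinoblastoma protein that p21 keeps active, fell by 0.77 (adjusted p 0.0264). Trp53 itself gave -0.04 and Mdm2 gave 0.09, neither past the test. Of 5 tested partners of NCAM and enzymes that modify it, L1cam, a related adhesion molecule, passed at -0.70 (adjusted p 0.0439), but its second probe gave 0.72, and the first was -0.01 under normexp. In the deposited values, Runx3 was the only gene among these relatives, partners and kinases that still passed as higher.

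Of 11 tested genes of the myogenin axis, downstream of Dach2, 7 fell, beside 6.12% of all genes and transcripts, and none rose. Their median was -1.18, beside 0.03 over all. Among them were the acetylcholine receptor subunit genes Chrna1, Chrnb1, Chrnd and Chrng, the receptor-clustering kinase gene Musk and the embryonic myosin gene Myh3, with differences from -0.94 (Musk) to -3.62 (Chrng). A second probe of Myh3 gave 0.92. Myog itself, at 1.28, 1.07 and 1.47 in exercised and 1.66, 2.81 and 2.89 in sedentary mice, did not overlap between groups and missed the threshold (-1.18, adjusted p 0.0603). Its sedentary mouse 1 was again the nearest to the exercised mice. The ubiquitin ligase genes Trim63 (0.53, adjusted p 0.0506) and Fbxo32 (-0.39, adjusted p 0.124) did not pass and lay in opposite directions.

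**Figure D4:**
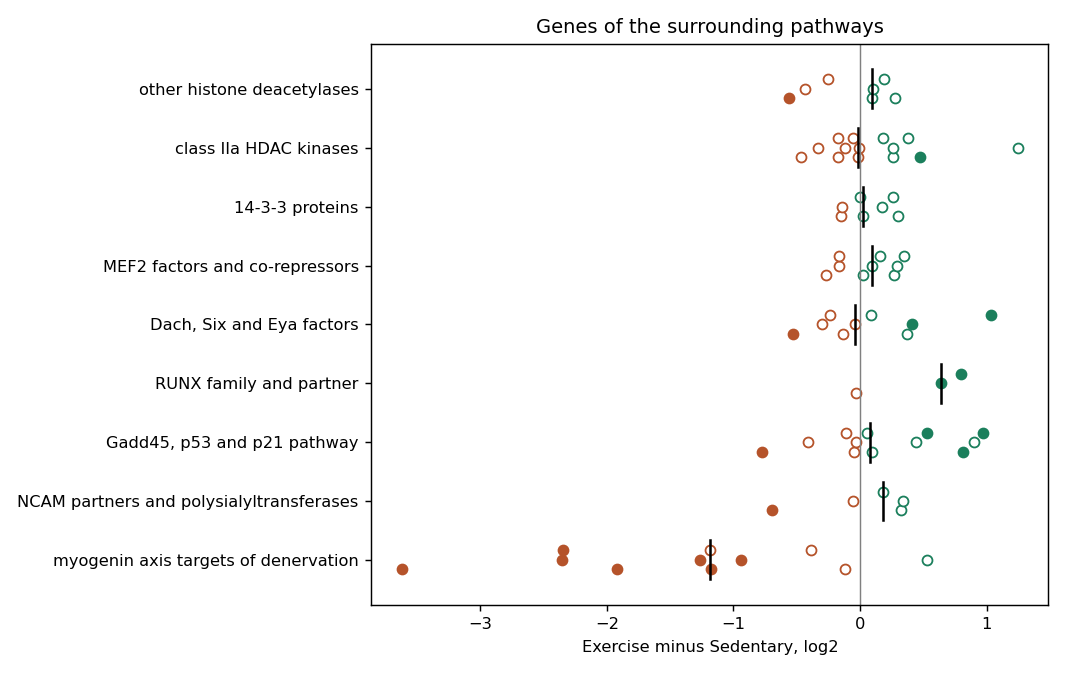
Difference between exercise and sedentary arrays (log2, horizontal axis) for each tested gene of 9 lists around the pathway; filled symbols passed an adjusted p of 0.05, green is higher and brown is lower after exercise, and the vertical bars are list medians. The myogenin axis has its median at -1.18, and in the other lists the median lies between -0.04 and 0.64.

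The 3 named genes whose signals followed Hdac4 most closely over the 6 arrays were Krtap5-1, Ano3 and Phlpp2, each with a Pearson r of 0.995. Of 15746 named genes compared, 6 had an r above 0.99. These coefficients describe 6 arrays that fall into groups, which also separates any gene that differed between the groups. Krtap5-1, a hair keratin-associated gene, differed by -0.22 (adjusted p 0.136) and the phosphatase gene Phlpp2 by -0.37 (adjusted p 0.0693). Ano3, of the anoctamin family, was not well above background in any exercised mouse. It was 1.90-fold higher in sedentary mice with each exercise value taken at no less than the lowest detected signal of its array. It met the filter on dim probes only through the sedentary mice.

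Sedentary mouse 1 stood differently from gene to gene. For the brightest probes of Hdac4, Hdac9 and Ncam1 the difference from this mouse alone (-0.58, 0.40 and -0.67) was close to that from all sedentary mice. For Runx1, Gadd45a and Cdkn1a it was smaller (-0.64, -0.39 and -0.17, beside -1.29, -1.01 and -0.70), and for Hdac5 and Hdac7 it was 0.19 and -0.02. The NM_010875 probes of Ncam1 also gave smaller differences from this mouse (-0.51 and -0.53, beside -1.55 and -1.20). Dach2 gave 2.13, beside 1.87, with sedentary values below detection. Whether the genes differed in this respect was not tested, and since mouse 1 was the only sedentary mouse in the strip of the exercised mice, mouse and strip cannot be told apart. The strip of sedentary mice 2 and 3 held no exercise array. With the strip as a block in limma, each difference is therefore that from sedentary mouse 1 alone. The block is not a separate adjustment for the strip. Leaving out any array other than that of sedentary mouse 1 removed all 5 calls, and then at most 1 gene or transcript in the whole table passed, although the 5 differences kept their direction and 6 or 7 of the 9 genes had an unadjusted p below 0.05, as had 6686 to 8146 of the 25005 genes and transcripts.

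**Figure D5:**
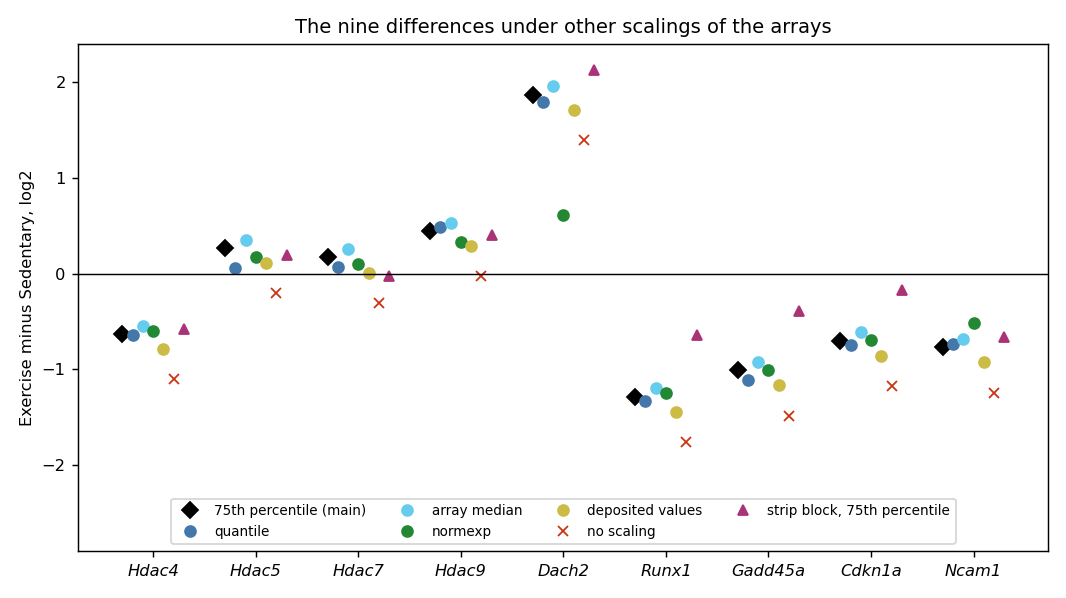
Difference between exercise and sedentary arrays (log2, vertical axis) of the 9 genes under the main scaling (diamond), other scalings and background corrections (circles), no scaling (crosses) and with the slide strip as a block (triangles). Each triangle is the difference from sedentary mouse 1 alone. Hdac4, Runx1, Gadd45a, Cdkn1a and Ncam1 lie below 0 under all of them and Dach2 above 0, while Hdac5, Hdac7 and Hdac9 are at -0.21, -0.30 and -0.03 without scaling.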

How the data were processed

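Total RNA was labelled with Cy3 and hybridized to SurePrint G3 Mouse GE v2 8x60K arrays, 1 per mouse. The authors read the images with Agilent Feature Extraction 12.1.0.3 and deposited, for each spot, a processed signal intensity (background-subtracted, linear scale) with flags. The deposited table of all arrays held the same intensities multiplied by 1 factor per array, 1.33 to 1.88. The methods name no scaling, so log2 intensities were taken relative to each array's 75th percentile after control and outlier-flagged spots were left out. Spots of a probe were averaged, and a probe was kept if flagged well above background on 3 or more of the 6 arrays (32726 of 56605). Probe accessions without versions were matched to RefSeq symbols of GRCm38.p6 (34566 probes), a table used for names and promoter sequences. Hdac4 was matched by accession, since that symbol is also an older name of Hdac5. The brightest probe stood for a gene, and other probes are given with adjusted p over all probes. The comparison used limma (version 3.58.1, with R 4.3.3): a linear model with moderated, two-sided statistics and adjusted p by Benjamini-Hochberg across 25005 features, of which 15747 had a name. Where a group had no array with the probe well above background, a fold change is given with its values taken at no less than each array's lowest detected signal. Undetected probes can read above that level, so this is not a strict bound. Precision is limited by the number of arrays.

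Named were all 9 genes, every gene of a pathway list past an adjusted p of 0.05 or, with none, the one with the largest difference, and the 3 genes most correlated with Hdac4. Camk2a, Runx1t1, Runx2, Trp53, Mdm2, Myog, Trim63 and Fbxo32 were named after their values were seen. The members and lists were chosen with earlier results of these data known. A few genes of the lists enter the counts and are not reported here by name. Code was tested on simulated data. Alternatives were quantile, array median or no scaling, normexp (offset 50), filters on dim probes, the most variable probe or the mean of a gene's probes, the deposited values, each array left out, replicate number or slide strip as a block, eBayes with trend and robust, array weights, and the methods' threshold with an absolute log2 difference of at least 1.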

Additional observations from a re-analysis of the deposited data

How the results depend on the processing

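Over the 18 or 19 other settings run for each gene, the differences of Hdac4, Dach2, Runx1, Gadd45a, Cdkn1a and Ncam1 kept their direction. Without scaling, which moved the median of all genes to -0.45, Hdac5 (-0.21), Hdac7 (-0.30) and Hdac9 (-0.0285) reversed, and Hdac7 also reversed with the strip as a block (-0.0219). The shift without scaling is the same for every gene, so that relative to the median these differences could not move. Under normexp, where they could, they were 0.08 for Hdac5, 0.009 for Hdac7 and 0.24 for Hdac9 relative to the median. With the strip as a block, sedentary mouse 1 is the only sedentary mouse set against the exercised mice. The reversed Hdac7 value is therefore its difference from this mouse alone. The array median moved the median of all genes to 0.11 and left Hdac4 at an adjusted p of 0.0504, and the deposited values moved it to -0.13 and left Hdac9 at 0.103. The number of lower members called, 3 by the main test, was 1 with the methods' fold threshold (Runx1) and 0 with the strip as a block, and the most variable probe of Ncam1 missed the threshold (adjusted p 0.0705). The number of higher members called, 2 by the main test, was 1 without scaling, 1 with a filter on all arrays (which drops Dach2), 1 with the deposited values, 1 with the fold threshold (Dach2) and 0 with the strip as a block. Leaving out 1 array gave 0 to 3 lower and 0 to 2 higher members; without sedentary mouse 1 the counts were 3 and 2, with Gadd45a called in place of Hdac4 (adjusted p 0.0537). Over the arrays whose loss ended a call, the adjusted p was 0.0537 to 0.126 for Hdac4, 0.0696 to 0.109 for Hdac9, 0.062 to 0.0957 for Dach2, 0.0742 to 0.113 for Runx1 and 0.0614 to 0.0957 for Ncam1. Gadd45a passed under no scaling, normexp, the filter on all arrays, the deposited values, trend and robust eBayes and array weights (adjusted p 0.00819 to 0.0380).

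Deviations of same-numbered mice from their group means correlated at 0.02 to 0.08. With 3 arrays per group such values cannot decide whether the replicate numbers pair the arrays. With the replicate block 0 members were called lower and 0 higher, with adjusted p from 0.0606 for Dach2, and 0 of all features passed (8591 had an unadjusted p below 0.05). Over all features, calls split 1530 lower to 2868 higher by the main test, 11280 to 617 without scaling, 875 to 2680 with the array median, 2006 to 6173 with normexp and 3201 to 1172 with the deposited values. Dim probes such as that of Dach2 limit what can be said of sedentary levels.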
